A study of Malus domestica with 8 samples.

Results

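The leaf transcriptome of the apple CRISPR/Cas9 line mdagg-4 was compared with that of 2 other lines, mdagg-2 and mdagg-3. The comparison was chosen by the sample labels alone: the 2 mdagg-4 libraries were set against the mean of mdagg-2 and mdagg-3, with each of these lines entering as its own mean of 2 libraries, so that 6 of the 8 libraries of the series carry the contrast. All 3 lines were made in the cultivar 'Gala' of Malus domestica as knock-outs of MdAGG, and the remaining 2 libraries are from non-transformed Gala (wt), which has no weight in the contrast. Plants of every group, wt included, were rooted in vitro, grown for 8 weeks in a greenhouse, treated with a spray of acibenzolar-S-methyl (ASM, 0.2 g/l), and leaves were taken on day 3. Each library is a leaf bulk, and the 2 libraries of a group come from independent experiments. The sources used here do not give the edited alleles, the number of transformation events behind a line, or the number of plants per bulk, and the series has no transformed line without the knock-out among the libraries analysed here.

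MdAGG encodes an apple agglutinin, a lectin, that is, a protein that binds sugars and can crosslink the surfaces of cells that carry them. ASM, a functional analogue of salicylic acid, is sprayed to prime plants through the salicylic acid pathway, through which leaves switch on defence proteins without an infection. Lines that carry a knock-out of the same target can still differ from one another, because each passes through transformation and regeneration on its own. A comparison between lines therefore asks which leaf transcripts are not common to the knock-outs.

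Each library was described by estimated reads for 52311 annotated features, of which 32373 passed the filter on low counts. Total estimated reads per knock-out library ran from 28591909 to 36381307. The deposited files give identifiers without gene names, and 0 identifiers could be matched to the reference table, so MdAGG, defence genes and markers of leaf cell types could not be looked up and the knock-out and tissue labels were not checked against them. Features are named by identifier. In this nomenclature the 2 digits after MD, here called the field, stand for the chromosome (01 to 17, with 00 for features not placed on one). Levels are normalised read counts in CPM, estimated reads scaled to a common library size with TMM factors. Reads of near-identical gene copies may have been split between features, and in leaf bulks fewer cells of a type and less RNA per cell cannot be told apart. The p-values measure the spread between leaf bulks of the same line.

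Libraries of the same line were not always close to each other, which bears on every result. On the first principal component of the 6 knock-out libraries, which held 56.1% of the variance, mdagg-4 scored 19.0 and 100.2. The mdagg-3 libraries scored -40.2 and -33.3. The mdagg-2 libraries lay far apart, at -94.1 for replicate 1 and 48.4 for replicate 2, so the latter fell between the mdagg-4 libraries. Projected on the same component, wt scored 2.33 for replicate 1 and 32.0 for replicate 2. All pairs of scores are given in the order of the replicate numbers. On the first component replicate 2 thus scored above replicate 1 in every group, by far the most in mdagg-2 and mdagg-4. On the second component, with 16.5% of the variance, the mdagg-3 libraries lay apart, at 47.5 and -43.6. There the mdagg-4 libraries scored 45.5 and -8.27, and those of mdagg-2 -17 and -24.3. Of the 32373 features, 16.5% were at least 2-fold apart between the mdagg-2 libraries, 10.8% between the mdagg-4 libraries, 7.69% between those of mdagg-3 and 7.07% between those of wt. Replicate 2 of mdagg-4 also had the smallest share of reads in its most abundant feature (1.02%, against 1.75% to 2.17% in mdagg-2 and mdagg-3) and the highest TMM factor (1.11, against 0.913 to 1.03). The part of these library differences in the results was not tested.

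**Figure D1:**
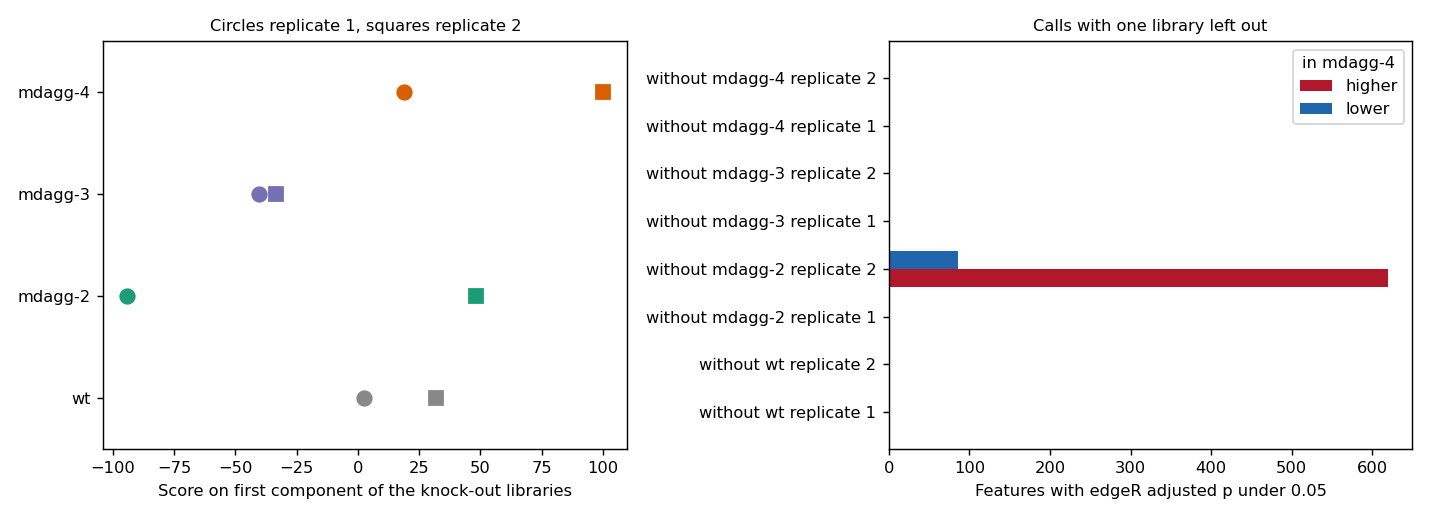
Left, scores of the libraries on the first component of the 6 knock-out libraries, with wt projected on it, where circles are replicate 1 and squares replicate 2; mdagg-2 replicate 2 (48.4) lies between the mdagg-4 libraries (19.0 and 100.2). Right, number of features higher or lower in mdagg-4 than in the mean of the other lines at an edgeR adjusted p under 0.05 when the named library is left out; the bars stand at 619 and 86 without mdagg-2 replicate 2 and at 0 in the other 7 rows.

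In mdagg-4, edgeR's quasi-likelihood test placed 0 features above and 0 below the mean of the other lines past the threshold on the adjusted p, 0.05 (0% of 32373 features in either direction). At an unadjusted p under 0.05 there were 2314 features (7.15%), and the smallest adjusted p was 0.153. Differences of at least 2-fold in the fit were found for 1442 features upward and 1300 downward, with a median standard error of 0.267 on the log2 scale over all features. DESeq2 on the same 8 libraries without a filter called 18 features higher (0.0552% of the 32600 with an adjusted p) and 53 lower (0.163%). In edgeR the same kind of contrast gave 1 higher and 0 lower for mdagg-2 against the other lines, and 0 and 0 for mdagg-3. Features at an unadjusted p under 0.05 numbered 751 for mdagg-2 and 988 for mdagg-3. DESeq2 gave 2 higher (0.00484%) and 1 lower (0.00242%) for mdagg-2, and 9 (0.0227%) and 12 (0.0302%) for mdagg-3. Whether the lines differ in these counts was not tested, and the contrasts share libraries.

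That count of 0 rested on mdagg-2 replicate 2. Without this library edgeR called 619 features higher and 86 lower in mdagg-4 (1.86% and 0.259% of 33221), while leaving out any of the other 7 libraries gave 0 and 0. In that fit the lone mdagg-2 library is assumed to vary like the other groups. The library that had been left out could then be looked at on its own. In 450 of the 619 higher features (72.7%) mdagg-2 replicate 2 reached the level of the lower mdagg-4 library or went past it, and in 603 (97.4%) it was nearer to the mdagg-4 mean than to the reference it had been left out of, where 64.2% of all features with a difference in this direction were. Of the 86 lower features it reached the level of mdagg-4 in 22 (25.6%) and was nearer to it in 50 (58.1%), against 65.1% of all features in that direction. The 72.7% counts features in which mdagg-2 replicate 2 reached at least the lower of the 2 mdagg-4 libraries, and not their mean. It has no background share beside it. The share of all features in which mdagg-2 replicate 2 reached the level of mdagg-4 was not computed.

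MD13G1190500 had the smallest p of all features; it has 766 bases. It held 353 and 478 estimated reads in mdagg-4. The reference lines had 66 and 67 (mdagg-3) and 52 and 70 (mdagg-2), and each wt library had 14. All of the 4 reference libraries lay far below both mdagg-4 libraries, and wt lay lower still. The level of mdagg-4 was 11.1 ± 1.17 CPM (SD, n = 2), those of mdagg-3 and mdagg-2 were 2.01 ± 0.209 and 2.08 ± 0.407, and that of wt was 0.386 ± 0.0319, so that mdagg-4 stood 5.42-fold above the mean of the other lines. The log2 difference was 2.44 ± 0.22 (SE, edgeR adjusted p = 0.153), which missed the threshold, while DESeq2 gave an adjusted p of 2.11e-11. It passed in edgeR as well without the low-count filter (adjusted p = 0.0289), with the 4 reference libraries as 1 group (0.0265) and without mdagg-2 replicate 2 (0.0249), with a range of 2.11e-11 to 0.999 over its 15 alternatives. The log2 difference itself stayed between 2.33 and 2.55 in those alternatives.

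MD14G1194300, of 747 bases, was the next feature higher in mdagg-4 with no overlap between groups. It held 64 and 80 reads in mdagg-4, 28 and 31 in mdagg-3, 0 and 1 in mdagg-2, and 3 and 2 in wt. The 3 lines thus stood at separate levels, 1.93 ± 0.0941 CPM in mdagg-4, 0.889 ± 0.038 in mdagg-3 and 0.0169 ± 0.0239 in mdagg-2 (SD, n = 2 each). Its log2 difference from the mean of the other lines was 3.83 ± 0.47 (SE, edgeR adjusted p = 0.52). It averages 6.54 from mdagg-2, which had almost no reads, with a smaller value from mdagg-3. It also rests on edgeR's default prior count in the fit, which was not varied. Against mdagg-3 alone the log2 difference was 1.11 ± 0.44 (SE, edgeR adjusted p = 0.691). Over the alternatives the log2 difference from the mean of the other lines ranged from 2.05, with the reference lines as 1 group, to 5.09, without mdagg-2 replicate 2, where the edgeR adjusted p was 0.0249. The adjusted p ranged from 0.00652 in DESeq2 to 0.999.

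On the lower side the smallest p without overlap between groups belonged to MD15G1165600 and MD15G1175400, both in field 15. MD15G1165600, of 2212 bases, held 722 and 858 reads in mdagg-4. The reference lines had 1330 and 1562 (mdagg-3) and 1455 and 1397 (mdagg-2), and wt had 1532 and 1504. The mdagg-4 level of 21.2 ± 0.278 CPM (SD, n = 2) compared with 46.1 ± 3.24 over the 4 reference libraries (SD, n = 4), a ratio of 0.459. On the log2 scale this was -1.12 ± 0.15 (SE), with adjusted p values of 0.52 from edgeR and 6.85e-05 from DESeq2. The 4 reference libraries and wt, at 41.9 ± 4.01 CPM (SD, n = 2), lay close together and far above mdagg-4.

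MD15G1175400, of 2104 bases, showed the same pattern at a lower level. Reads were 363 and 432 in mdagg-4. They were 647 and 832 (mdagg-3) and 686 and 684 (mdagg-2) in the reference lines, and 683 and 792 in wt. The mdagg-4 level of 10.7 ± 0.151 CPM (SD, n = 2) compared with 22.8 ± 1.1 over the reference libraries (SD, n = 4), a ratio of 0.468. The log2 value was -1.10 ± 0.15 (SE), with adjusted p values of 0.52 from edgeR and 0.00023 from DESeq2. For both field 15 features the edgeR adjusted p passed the threshold without mdagg-2 replicate 2, at 0.0285 and 0.0296, and the DESeq2 and edgeR values together ranged from 6.85e-05 to 0.999 and from 0.00023 to 0.999 over the alternatives.

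**Figure D2:**
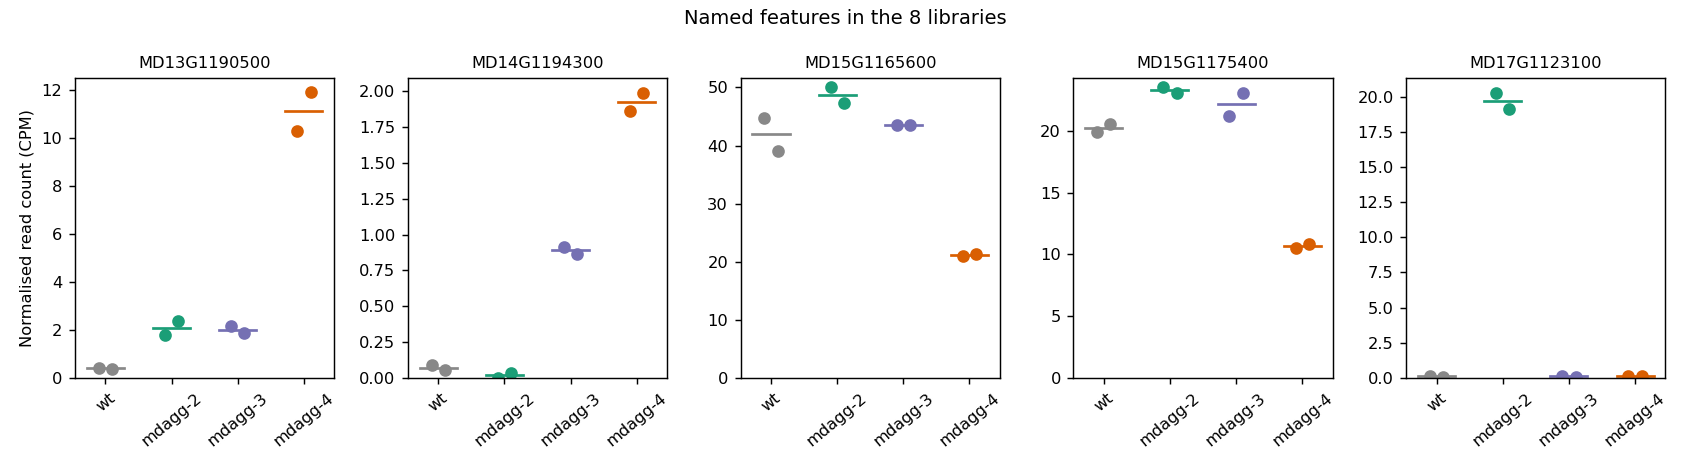
Normalised read counts (CPM, linear axes from 0) of the 5 features named in the text in each library, with a point per library and a bar at the mean of the 2 libraries of a group. MD13G1190500 stands at 11.1 CPM in mdagg-4 and near 2 in the other lines, the field 15 features are lower in mdagg-4 than in every other library, and MD17G1123100 is at 19.7 CPM in mdagg-2 and under 0.2 elsewhere.

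Set against each reference line on its own, mdagg-4 gave few calls. The edgeR test against mdagg-2 called 0 features higher and 1 lower (0.00309% of 32373). An unadjusted p under 0.05 was reached by 1438 features, and DESeq2 called 9 higher (0.027%) and 23 lower (0.0689%). The feature called was MD17G1123100, named because it was the one call and not by the rule, with 4 and 5 reads in mdagg-4, 588 and 565 reads in mdagg-2, and 3 to 5 in each library of mdagg-3 and wt. It stood away from mdagg-2 by -7.31 ± 0.35 on the log2 scale (SE, edgeR adjusted p = 0.00169). From mdagg-3 it was 0.40 ± 0.47 (SE, edgeR adjusted p = 0.856), so the call separates mdagg-2 from all other groups rather than mdagg-4. Leaving out mdagg-4 replicate 1 or replicate 2 ended the call, with smallest adjusted p values of 0.085 and 0.0884 in those fits, and leaving out mdagg-2 replicate 2 gave 207 higher and 17 lower. The test against mdagg-3 called 0 features in either direction (0%), with 1979 at an unadjusted p under 0.05, a smallest adjusted p of 0.569, and 21 higher (0.0677%) and 42 lower (0.135%) in DESeq2. The 4 named features that followed the rule differed in the same direction from each reference line, by 2.41 and 2.46 for MD13G1190500, 6.54 and 1.11 for MD14G1194300, -1.20 and -1.04 for MD15G1165600, and -1.13 and -1.06 for MD15G1175400 on the log2 scale (from mdagg-2 and mdagg-3). These pairs share the mdagg-4 libraries.

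Without a model, both mdagg-4 libraries lay above all 4 reference libraries for 2620 features (8.09% of 32373) and below all 4 for 2754 (8.51%). A ratio of group means of at least 2-fold was met by 425 of the former (1.31%) and 606 of the latter (1.87%). The split between the directions depended on the scaling, with 41.2% of these features above under TMM and 52.1% (520 above, 479 below) when scaled by library size alone, a setting that moved the median log2 difference of all features from -0.01 to 0.10. With 2 libraries set against 4, some features lie above or below all 4 by ordering alone, without a difference between lines. The share this gives was not computed, so whether the 8.09% and 8.51% exceed it was not tested. The same limit holds for the 425 and 606 features, which are called separated here. The separated features were scarcer than the features as a whole. Their median level over the knock-out libraries was 0.827 CPM for those higher and 1.23 CPM for those lower in mdagg-4, where the median of all features was 9.6 CPM, and 53.6% and 44.9% of them were under 1 CPM, against 15.4% of all features. Separation was found for 9.24% of the features in the lowest quintile of abundance and for 0.649% in the highest. None of the separated features (0 of 1031 by edgeR) passed the adjusted threshold, while 15 of those higher and 48 of those lower were among the DESeq2 calls. Without mdagg-2 replicate 1 the counts were 297 and 503, and without mdagg-4 replicate 2 they were 439 and 1028.

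Among the separated features above 10 CPM, where counting error is small, 42 were higher in mdagg-4 (0.264% of 15887) and 85 were lower (0.535%). The highest ratio among the former was 4.22 and the lowest among the latter 0.186. Of the 85 lower features, 24 (28.2%) carried identifiers of a stretch of field 15 that holds 44 of the 15887 features above 10 CPM (0.277%). This stretch had been found in the same libraries before.

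The place of wt among the separated features was then read from the wt libraries, which had no part in choosing these features. The choice itself put mdagg-4 at the extreme, and the shares over all features given below carry no such choice. The counts therefore give where wt lay and do not decide whether mdagg-4 or the reference lines stood away from it. For the 606 features lower in mdagg-4 the wt mean was nearer to the reference lines in 427 (70.5%). In 375 (61.9%) both wt libraries lay above both mdagg-4 libraries, and in 77 (12.7%) both lay below all 4 reference libraries. For the 425 features higher in mdagg-4 the wt mean was nearer to mdagg-4 in 279 (65.6%). In 172 (40.5%) both wt libraries lay above all 4 reference libraries, and in 182 (42.8%) both lay below both mdagg-4 libraries. Shares over all features were not computed for these counts of both wt libraries. Over all features the wt mean was nearer to mdagg-4 for 46.6% of those lower and 55.0% of those higher in mdagg-4. These shares depended on single libraries. The share of lower features with wt nearer to mdagg-4, 29.5% with both, was 13.7% with wt replicate 1 alone and 54.0% with wt replicate 2 alone, and the share of higher features was 52.9% and 67.8%. Without mdagg-2 replicate 1 the share of higher features was 52.5% and without mdagg-4 replicate 2 it was 56.0%, so the distance of 65.6% from the 55.0% of all features was not kept without either library or with wt replicate 1 alone. The share of lower features was 26.0% and 24.8% without these libraries, but with wt replicate 2 alone its 54.0% lay above the 46.6% of all features. The shares of all features were computed with all 8 libraries and not for these settings.

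**Figure D3:**
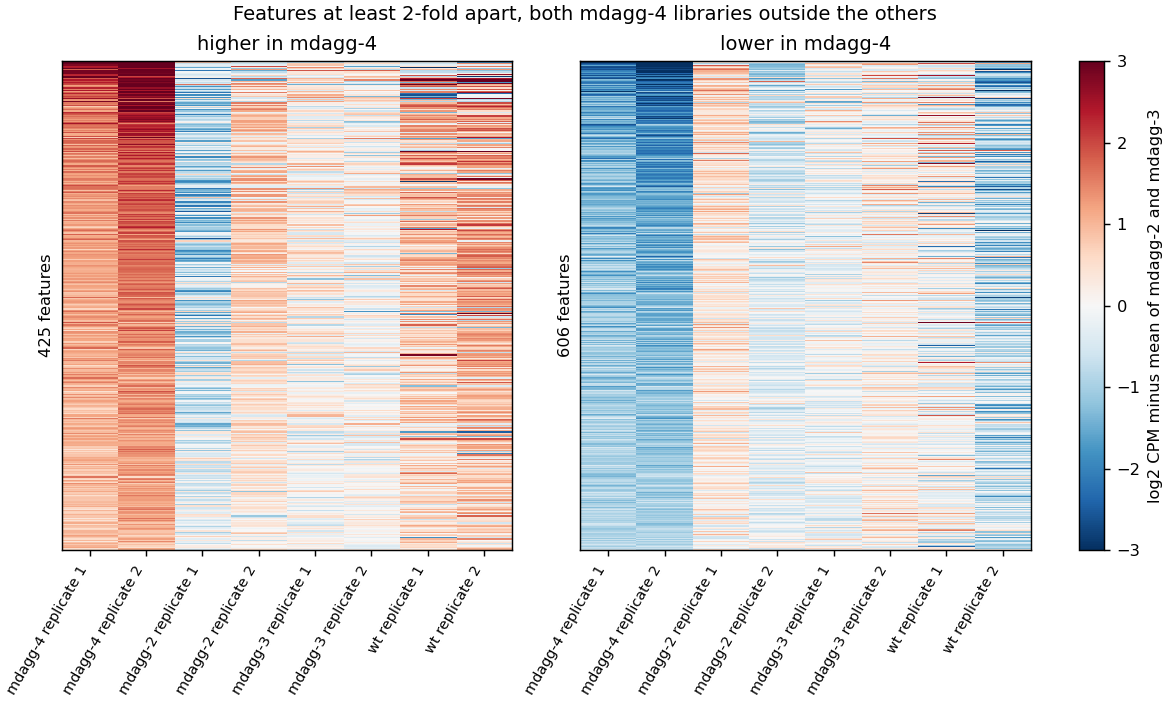
Level of each of the 1031 separated features in the 8 libraries, as log2 CPM minus the mean of mdagg-2 and mdagg-3, with colours limited to 3 in either direction and features ordered by their mean in mdagg-4. In the 425 features higher in mdagg-4 the wt columns are mostly red and mdagg-2 replicate 1 is mostly blue, while in the 606 lower features wt replicate 1 is near 0 and wt replicate 2 is bluer.

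The difference was also taken within each replicate number, as mdagg-4 replicate 1 minus the mean of replicate 1 of the other lines, and the same for replicate 2, so that the 2 values of a feature share no library. They were at least 2-fold in the same direction for 802 features upward (2.48% of 32373) and 534 downward (1.65%), and in opposite directions for 22 and 35. Of the features at least 2-fold higher in replicate 1, 45.8% were so in replicate 2, and of those lower 43.7%. As shares of the replicate 2 lists the values were 49.1% and 31.4%. The correlation of the 2 differences across features, which are not independent replicates, was 0.558 over all features and 0.681 over the 17534 with a mean log2 CPM above 3. The sources used here do not say whether a number stands for the same experiment in each line. When mdagg-4 replicate 1 was set against replicate 2 of the other lines and the reverse, the correlation was 0.0395, with 155 features upward and 232 downward in both. Without mdagg-2 replicate 1 the same-number counts were 392 and 397. The repeat of the differences therefore depended on how libraries were matched and on that library.

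**Figure D4:**
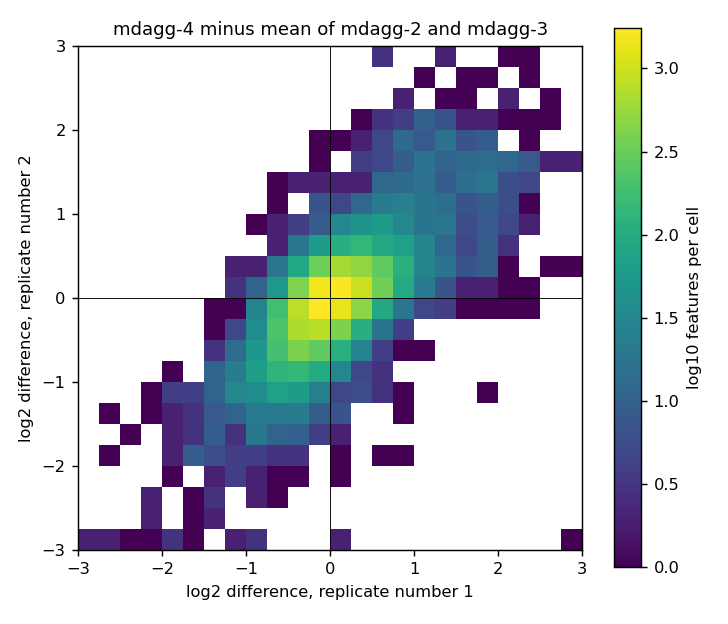
Number of features (log10 colour scale) by the log2 difference of mdagg-4 from the mean of the other lines within replicate number 1 (x axis) and within replicate number 2 (y axis), for the 17534 features with a mean log2 CPM above 3, in cells of 0.25 with values beyond 3 placed in the outermost cells. The features spread along the rising diagonal, with a correlation of 0.681.

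Along identifier order the difference was flat apart from 1 place. Medians per field, over features with a mean log2 CPM above 3, ran from -0.04 in field 05 to 0.03 in field 03. In 694 windows of 25 consecutive features, the 3 lowest medians were neighbours in field 15, at -0.52, -1.10 and -0.28, and all other windows lay between -0.24 and 0.28. These 3 windows cover the stretch of 51 features, of the 1658 in that field, already known to be lower in mdagg-4. The 51 features were picked in these same libraries, so the values below describe the stretch and are no separate support for it. Its median log2 difference from mdagg-2 and mdagg-3 was -1.04, with 49 of the 51 features lower and a range of -2.32 to 0.08, and it was -1.01 within replicate 1 and -1.07 within replicate 2. By library, the median against the mean of mdagg-2 and mdagg-3 was -0.977 and -1.07 in mdagg-4. It ran from -0.044 to 0.0397 in the reference and wt libraries. The other 1607 features of field 15 had a median of -0.01.

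**Figure D5:**
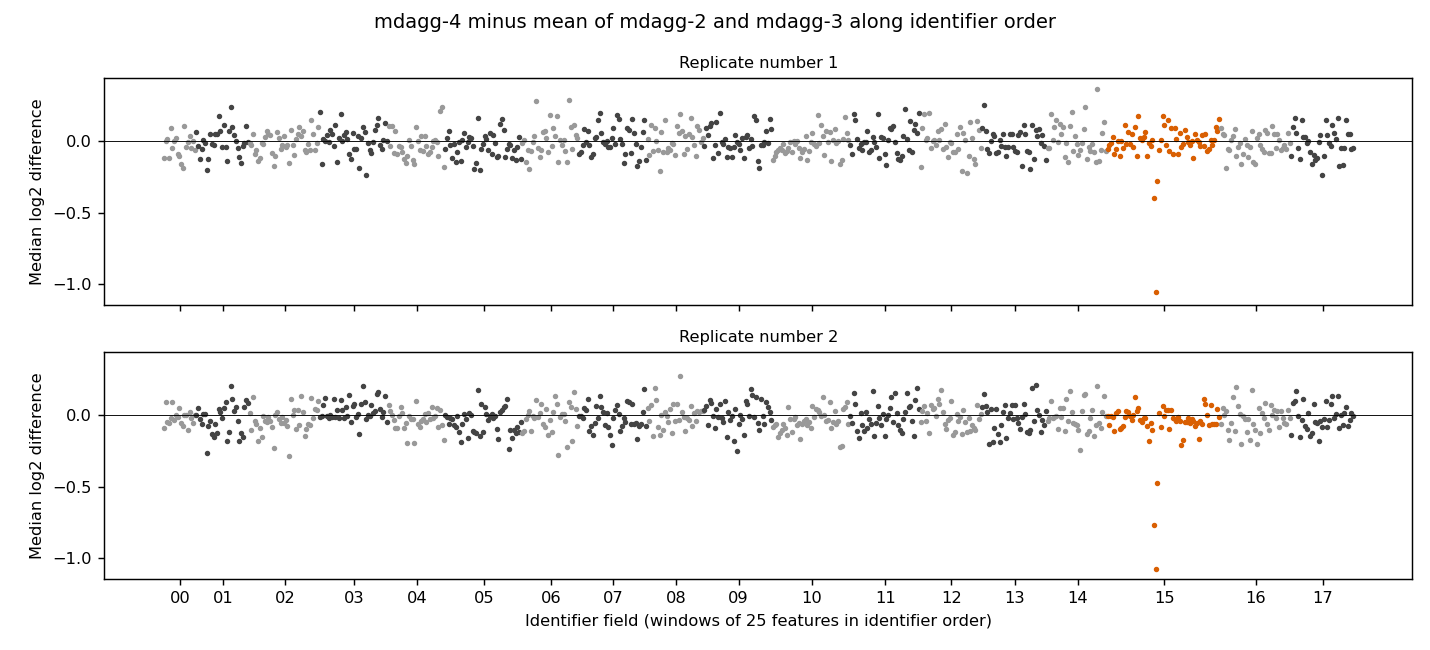
Median log2 difference of mdagg-4 from the mean of mdagg-2 and mdagg-3 in windows of 25 consecutive features in identifier order (x axis, with the field below), within replicate number 1 (top) and 2 (bottom). Field 15 is drawn in orange, where 3 neighbouring windows drop, the lowest to -1.05 and -1.07.

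The stretch accounted for most of what DESeq2 called lower. Of the 53 lower calls, 34 were in field 15 and 31 lay between the borders of the stretch, which hold 96 of the 32373 tested features. In 49 of the 53 the wt mean was nearer to the reference lines and in 4 it was nearer to mdagg-4. Among all features lower in mdagg-4 it was nearer to mdagg-4 for 46.6%. The mdagg-4 libraries lay below all reference libraries in 51 of the 53, and in 8.51% of all features. Of the 18 higher calls 1 was in field 15. The wt mean was nearer to mdagg-4 in 9 of the 18, and in 55.0% of all features higher in mdagg-4. The mdagg-4 libraries lay above all reference libraries in 15 of the 18, and in 8.09% of all features. DESeq2 made the calls from these same libraries, so the separation is no further support for the calls. The 71 features all had an unadjusted p under 0.05 in edgeR, with adjusted p values of 0.153 to 0.614. Outside the borders separated features at least 2-fold lower made up 2% of field 15, near the 1.87% of all features, and between them 43.8%. The borders were set in these same libraries, so the 43.8% is no separate support for the stretch.

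Differences from absence to presence were few. In 4 features (0.00765% of 52311) both mdagg-4 libraries held at least 20 reads and each reference library at most 5, and the reverse was found for 0 features (0%). One feature of field 02 had 23 and 28 reads in mdagg-4 and 0 to 3 elsewhere among the knock-out lines. Of 2 features in field 11, one had 47 and 28 reads in mdagg-4 against 0 to 5, and the other 51 and 29 against 0 to 3. The wt libraries held 0 to 7 reads of these 3 features. The fourth, in field 13, had 31 and 99 reads in mdagg-4 and 0 to 3 in the reference libraries, but 2 and 58 in wt. None of the 4 passed edgeR's test (0 of 4, adjusted p = 0.614 for each), 0 were left when at most 2 reads were allowed in the reference, and 0 when at least 50 were required in mdagg-4.

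Transcript length moved slightly with the difference in 1 of the replicate numbers. In replicate 1 the median log2 difference was -0.076 in the second-shortest quintile of features and 0.095 in the longest, while in replicate 2 the 5 medians lay between -0.04 and -0.0063. These shifts are small beside the 2-fold threshold used above.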

How the data were processed

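Leaf mRNA libraries were analysed from 1 deposited file per library, in the layout of Salmon. The estimated count of reads is an expected count, not normalized, per the file headers. TPM values, scaled by the authors per effective length, were read per the file headers and not tested. The submitters' processing notes name Salmon and DESeq2 but no versions. The genome build is not given in the sources used here, nor whether counting used strand. Estimated counts were rounded, filtered with filterByExpr and scaled with TMM factors. Contrasts came from edgeR 4.0.16 under R 4.3.3 (quasi-likelihood F test). The 8 libraries entered 1 model with 4 group means, which leaves 4 residual degrees of freedom, and wt adds to the estimate of the spread. Benjamini-Hochberg adjustment ran over all 32373 features, with a threshold of 0.05. An SE is the log2 difference divided by the square root of F, and a prior count of 2 was used for log2 CPM. DESeq2 (1.42.0) was an alternative. The fit was also run on simulated counts, drawn independently for each feature and library with the fitted spread. That simulation held no shift shared by the features of a library, so it does not cover the library differences described above.

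Libraries of a group differed by more than sampling noise (48.7 to 92.9 for chi-square per feature), so none was counted as a duplicate. Named features are, in each direction, the 2 with the smallest p whose groups did not overlap, because none passed the threshold. Gene lists and cell type markers had 0 matched identifiers and were not tested. Comparisons, lists and rules were chosen with earlier results of these data known. A table of the authors' comparisons with wt was not used.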

Additional observations from a re-analysis of the deposited data

Results flagged for a closer look

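MD17G1123100 differed between the reference lines, with a log2 difference of -7.31 between mdagg-4 and mdagg-2 and of 0.40 between mdagg-4 and mdagg-3. The test of that difference, mdagg-3 minus mdagg-2 in the same edgeR fit, gave -7.71 ± 0.37 (SE, adjusted p = 0.00155), with both mdagg-2 libraries above all 6 other libraries.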

How the results depend on the processing

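For mdagg-4 against the mean of the other lines, counts of 0 higher and 0 lower were also given by RLE scaling, library size scaling, the 6 knock-out libraries alone and the replicate block. DESeq2 gave 18 higher and 53 lower, no low-count filter gave 1 higher, and mdagg-2 and mdagg-3 as 1 group gave 1 higher; the cause was not tested. Leaving out each library gave 0 to 619 higher and 0 to 86 lower. Against mdagg-2 DESeq2 gave 9 higher and 23 lower, with 0 to 207 and 0 to 17 over left-out libraries, and against mdagg-3 it gave 21 and 42, with 0 and 0. The replicate block, fitted as an added term, left 0 and 0 calls in the main contrast, 1 lower against mdagg-2 and 0 against mdagg-3. Deviations of same-numbered libraries correlated at 0.53 for mdagg-2 with mdagg-4, 0.23 for mdagg-3 with mdagg-4 and 0.09 for mdagg-2 with mdagg-3. With wt they correlated at 0.26 (mdagg-2), -0.31 (mdagg-3) and -0.047 (mdagg-4). As these values varied over the 6 pairs of groups, the numbers were not taken to pair the libraries. The part of a shift shared by replicate number among the knock-out lines was not tested. Scaling by library size, also chosen after the data were seen for the separated features, gave 520 above and 479 below. Separated features numbered 297 to 439 above and 503 to 1028 below when mdagg-2 replicate 1 or mdagg-4 replicate 2 was left out, settings chosen after the data were seen. Features 2-fold apart in both replicate numbers were 519 and 307 with a prior count of 10, 155 and 232 with crossed numbers, and 392 and 397 without mdagg-2 replicate 1. The median of the field 15 stretch stayed between -1.07 and -0.977. Features near absence on 1 side fell to 0 under each stricter limit, and left-out libraries gave 4 to 5 present and 2 to 3 absent in mdagg-4. The share of features with wt nearer to mdagg-4 was 52.9% (higher) and 13.7% (lower) with wt replicate 1 alone, 54.0% (lower) with wt replicate 2 alone, and 52.5% to 56.0% (higher) and 24.8% to 26.0% (lower) over left-out libraries. None of the log2 differences of the 5 named features was reversed (0), but 3 balances of counts made without a test turned. Separated features were more often above than below with library size scaling. Features 2-fold apart in both numbers were no longer more often higher with crossed numbers or without mdagg-2 replicate 1. The wt mean was nearer to mdagg-4 for most lower features with wt replicate 2 alone. The balance of edgeR calls against mdagg-2 turned as well, from lower to mostly higher, without mdagg-2 replicate 2. Calls in the main contrast were mostly lower in DESeq2 and mostly higher in edgeR without that library. The cause was not tested. Scarce features limit the precision, since 15.4% of tested features were under 1 CPM.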

Other observations

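In field 00, which holds features not placed on a chromosome, 4 features with consecutive identifiers, MD00G1107000 to MD00G1107300, were lower in mdagg-4. They were picked after their values were seen. MD00G1107300 held 749 and 672 reads in mdagg-4, 1200 to 1497 in the 4 reference libraries, and 1512 and 1762 in wt. The ratios of mdagg-4 to the mean of the other lines were 0.364, 0.631, 0.453 and 0.436, beside 0.459 and 0.468 for the named features of field 15. Their DESeq2 adjusted p values were 0.00168, 0.577, 0.00154 and 0.000786, and in edgeR 0 of the 4 passed (adjusted p 0.547 to 0.614).

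Beside MD13G1190500, the preceding identifiers MD13G1190400 and MD13G1190300 held no reads (0) in either mdagg-3 library. MD13G1190300 had 27 and 74 reads in mdagg-4, 45 and 47 in mdagg-2 and 5 in each wt library, so mdagg-4 was not set apart from mdagg-2 there. Its log2 difference from the mean of the lines was 4.12 (edgeR adjusted p = 0.614, DESeq2 adjusted p = 0.0245). This value depends on the absence of reads in mdagg-3 and on edgeR's default prior count in the fit, which was not varied.

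Outside the stretch of field 15, few groups of neighbouring separated features were found, and pairs were not counted. Taking at least 3 consecutive tested identifiers as a group, 1 group of 3 features was higher (field 16) and 1 group of 3 was lower (field 07), while 8 lower groups lay inside the stretch. The stretch was picked in these same libraries as features lower in mdagg-4, so the 8 groups are no separate support for it.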
